A study of Homo sapiens with 6 samples.

Results

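The DPYSL genes, also called CRMP genes for the collapsin response mediator proteins that they encode, are a family of 5 human genes: CRMP1, DPYSL2, DPYSL3, DPYSL4 and DPYSL5. They were taken by gene symbol from a table of raw read counts, and 3 of the 5, DPYSL2, DPYSL3 and DPYSL4, had a row among the 12703 genes analysed. The family was selected on the counts of 1 member, DPYSL3, which was nearly lost in one group, so the DPYSL3 values are given as a description and carry no test. The counts came from PC3, a human prostate cancer line that was established from a metastasis in bone. In 3 libraries the RNA came from PC3 lines stably transduced with lentivirus carrying the GCNT1 open reading frame (GCNT1 overexpression), and in 3 from PC3 lines stably transduced with negative-control lentivirus (Lenti-ORF control). Every library, controls included, is therefore from transduced PC3 cells. Whether each line is a clone or a pool was not given in the sources used here, and p values measure the spread between these lines only. GCNT1 is the enzyme that adds the core 2 branch to O-glycans.

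CRMPs are cytosolic proteins that resemble the pyrimidine-degrading enzyme dihydropyrimidinase but have no known activity of that kind. They assemble into tetramers of the same or of different members and bind tubulin, which favours microtubule assembly and the outgrowth of axons. They were first found as relays of semaphorin 3A, which acts through neuropilin and plexin-A receptors, and phosphorylation by CDK5, GSK3, ROCK and related kinases releases them from tubulin. Most members are best known from the developing nervous system, and some are also transcribed in epithelial and tumour cells.

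The libraries held between 11392213 and 13825704 counts, so that 3 counts, the detection floor used here, corresponded to 0.217 to 0.263 CPM, the count scaled to library size. Fold changes and adjusted p values below are from the quasi-likelihood test of edgeR, Benjamini-Hochberg adjusted over all genes. GCNT1 itself had counts of 9, 13 and 8 in the controls, against 13, 16 and 35 in the overexpressing lines. Its log2 fold change was 0.98 ± 0.37 (SE) with an edgeR adjusted p = 0.0362, but 0.49 with an edgeR adjusted p = 0.269 without GCNT1 overexpression replicate 3. Leaving out control replicate 1 or 3 gave an edgeR adjusted p of 0.092 and 0.0944, and DESeq2 gave an adjusted p = 0.0821. The keratin genes KRT8 and KRT18 had means of 222 and 253 CPM in controls and 202 and 222 CPM with overexpression, while KRT19 fell from 369 to 230 CPM and CDH1 from 3.59 to 1.10 CPM. EPCAM was at 5.54 and 5.91 CPM, and VIM at 1127 and 1390 CPM. These 6 epithelial and PC3 genes summed to 1910 to 2030 CPM in controls and 1969 to 2168 CPM with overexpression, mostly VIM. Of 15 leukocyte, endothelial and fibroblast markers 5 had a row. The leukocyte gene CD68 was at 83.4 to 94.4 CPM in controls and 80.01 to 89.52 CPM with overexpression. The summed level of the endothelial pair (PECAM1 and KDR) was 148 to 166 CPM in controls and 47.7 to 63.4 CPM with overexpression, and that of the fibroblast pair (COL1A1 and COL3A1) was 126 to 178 and 43.0 to 46.7 CPM. The defining markers PTPRC, CD3E, VWF, CDH5, COL1A2 and DCN were among those with no row. The endothelial sum was almost all KDR, which went from 154 to 53.1 CPM, while PECAM1 went the other way, from 1.77 to 4.43 CPM. KRT19, CDH1, KDR, COL1A1 and COL3A1 were lower with overexpression, as the family was, and the part of these markers in the results below was not tested.

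DPYSL3, which encodes CRMP4, was, with the exon lengths used here, the member with the highest level per length in controls and was nearly absent with GCNT1 overexpression. DPYSL3 (Entrez identifier 1809) lies on the minus strand of chromosome 5 of hg38 from 147390808 to 147510068, and RefSeq gives it 2 start sites. The 250 bases before each start are shown because the counts of DPYSL3 cover transcripts from both, and the single start of DPYSL4, the other member with a large fall, is shown for comparison. Sequences are from RefSeq on GRCh38.p14, 5′ to 3′ on the strand of the gene, and capitals mark the GC box motif GGGCGG, searched on both strands.
DPYSL3 outer start (minus strand), chr5:147510069-147510318: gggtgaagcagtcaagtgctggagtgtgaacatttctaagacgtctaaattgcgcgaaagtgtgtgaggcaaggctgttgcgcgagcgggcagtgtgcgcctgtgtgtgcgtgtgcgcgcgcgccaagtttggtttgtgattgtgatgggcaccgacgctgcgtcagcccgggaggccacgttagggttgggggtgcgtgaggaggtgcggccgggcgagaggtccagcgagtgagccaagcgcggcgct
DPYSL3 inner start (minus strand), chr5:147453693-147453942: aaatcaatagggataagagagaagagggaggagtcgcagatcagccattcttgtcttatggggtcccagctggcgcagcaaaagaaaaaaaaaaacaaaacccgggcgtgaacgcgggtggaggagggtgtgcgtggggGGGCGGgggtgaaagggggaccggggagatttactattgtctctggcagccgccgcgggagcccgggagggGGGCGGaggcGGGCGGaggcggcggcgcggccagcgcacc
DPYSL4 start (plus strand), chr10:132186698-132186947: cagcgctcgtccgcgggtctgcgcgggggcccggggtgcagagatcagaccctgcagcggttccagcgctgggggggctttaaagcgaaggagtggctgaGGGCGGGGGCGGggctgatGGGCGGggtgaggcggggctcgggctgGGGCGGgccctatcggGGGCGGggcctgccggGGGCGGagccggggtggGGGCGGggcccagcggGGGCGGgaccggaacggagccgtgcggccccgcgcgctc
The outer DPYSL3 window held no GC box, the inner one 3 and the DPYSL4 window 8. GC boxes were present in 42.6% of 35116 RefSeq windows of the same 250 bases. The G and C content was 62.8% and 63.6% in the DPYSL3 windows and 80% in the DPYSL4 window, against a median of 58% over all windows. The number of CpG dinucleotides was 25, 21 and 31, against a median of 11. None of the 3 windows held CACCTG (17.5% of all windows), TATAAA (10.7%) or TGACTCA (4.2%) on either strand, and none of these motifs contains another. A match is only a run of letters, and gene-level counts do not tell which DPYSL3 start was used.

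DPYSL3 had counts of 1420, 1424 and 1297 in control lines 1 to 3, against 3, 5 and 4 in overexpressing lines 1 to 3. Scaled with edgeR's TMM factors these were 113, 114 and 109.7 CPM in controls and 0.259, 0.364 and 0.284 CPM with overexpression. The groups were far apart, and each overexpressing library was within a few counts of the detection floor. The 12 counts of the 3 overexpressing libraries, of 38629401 in all, gave 0.311 CPM with an exact Poisson 95% interval of 0.161 to 0.543, which covers counting error only. In bulk RNA, fewer cells with a transcript and less of it per cell cannot be told apart. The control mean was 372-fold higher, and the fitted log2 fold change was -8.48. Of all genes analysed, 20 including DPYSL3 had a log2 fold change at or below this value. Per kilobase of exon, DPYSL3 stood at the 75.7th percentile of all genes in controls and at the 0.97th percentile with overexpression. The opposite-strand gene STK32A reaches into the DPYSL3 span in RefSeq, and whether the counting used strand was not given in the sources used here.

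**Figure D1:**
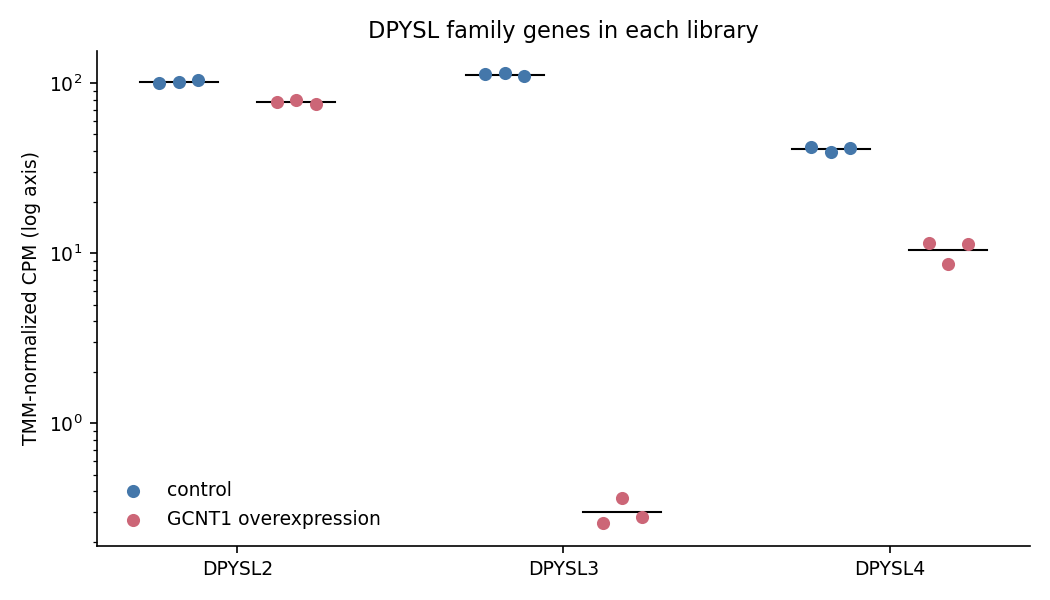
TMM-normalized CPM (log axis) of DPYSL2, DPYSL3 and DPYSL4 in each of the 3 control and 3 GCNT1 overexpressing libraries, with the group mean as a line. The groups do not overlap for any of the 3 genes, and the distance between them runs from 1.31-fold for DPYSL2 to 372-fold for DPYSL3.

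DPYSL4, which encodes CRMP3, fell by 1.98 on the log2 scale. It lies on the plus strand of chromosome 10 from 132186948 to 132205759, the most compact locus of the family, and no other annotated gene of GENCODE 44 overlaps it. DPYSL4 had counts of 534, 491 and 491 in the controls, against 133, 119 and 159 in the overexpressing lines, or 42.4, 39.4 and 41.5 CPM against 11.5, 8.66 and 11.3 CPM. The lowest control library was above the highest overexpressing library by far more than the spread within either group. The control mean was 41.1 ± 1.54 CPM and the overexpression mean 10.5 ± 1.57 CPM (SD, n = 3 each), 3.93-fold lower. The SE of its log2 fold change was 0.097, and the edgeR adjusted p = 2.42e-09. A gene was called when its adjusted p was below 0.05 and its log2 fold change was beyond 0.58 in either direction, and DPYSL4 was called. So were 19.3% of all genes, 11.1% lower and 8.28% higher. These were 1405 genes lower and 1052 higher, but 1230 lower and 1283 higher when scaled by library size alone, so the balance of directions turned with the scaling. A log2 fold change at or below that of DPYSL4 was found in 292 genes (2.3%).

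DPYSL2, which encodes CRMP2, the most studied member and one that links tubulin to kinesin in axons, had the smallest difference. It lies on the plus strand of chromosome 8 from 26514031 to 26658175. DPYSL2 had counts of 1264, 1257 and 1241 in the controls, against 898, 1101 and 1070 in the overexpressing lines, which were 100.4, 101 and 105 CPM against 77.6, 80.2 and 75.8 CPM. The 3 overexpressing libraries were lower than the 3 controls without overlap, as were those of DPYSL3 and DPYSL4. Such a separation was seen in 62.5% of all genes, and in the lower direction in 31.6%. DPYSL2 went from 102 ± 2.48 to 77.9 ± 2.17 CPM (SD, n = 3 each). The log2 fold change was -0.39 ± 0.053 (SE), with an edgeR adjusted p = 3.26e-05. DPYSL2 thus passed the p threshold, as did 57.6% of all genes, 29.3% in this direction, but not the minimum on the fold change, and was not called. Of the members with a row whose values had not chosen the family, 1 of 2 was called. Exact permutation tests of the CPM of DPYSL4 and of DPYSL2 gave p = 0.10 (two-sided), the smallest that 3 libraries against 3 allow.

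In control cells the 3 genes were transcribed at similar levels once divided by exon length. The level was 15.6 ± 0.331 CPM per kilobase for DPYSL3, 14.0 ± 0.340 for DPYSL2 and 13.2 ± 0.495 for DPYSL4 (SD, n = 3 each). DPYSL3 was above the other 2 in every control library, most narrowly in control 3, with 15.28 against 14.39 CPM per kilobase for DPYSL2. The lowest control of DPYSL2, 13.77 CPM per kilobase, was hardly above the highest of DPYSL4, 13.64. A different choice of exon length could turn the order of all 3 genes in controls. With GCNT1 overexpression the level was 10.7 ± 0.297 CPM per kilobase for DPYSL2, 3.37 ± 0.506 for DPYSL4 and 0.0421 ± 0.00764 for DPYSL3 (SD, n = 3 each), and no neighbours in this order overlapped.

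The summed level of the 3 genes was 43.1, 42.4 and 43.0 CPM per kilobase in the controls and 14.37, 13.82 and 14.06 in the overexpressing libraries, 32.9% of the control mean. The share of DPYSL2 in this sum went from 32.7% ± 0.762 to 75.8% ± 3.17, that of DPYSL3 from 36.5% ± 1.01 to 0.300% ± 0.0600 and that of DPYSL4 from 30.8% ± 0.897 to 23.9% ± 3.23 (SD, n = 3 each). These values rest largely on DPYSL3, on which the family was selected. Without DPYSL3, the sum of DPYSL2 and DPYSL4 went from 27.2 ± 0.634 to 14.0 ± 0.280 CPM per kilobase, 51.6% of the control mean, and the share of DPYSL2 in it from 51.4% ± 1.05 to 76.1% ± 3.23 (SD, n = 3 each). The ratio of DPYSL4 to DPYSL2 within a library does not depend on scaling between libraries. On the log2 scale this ratio was -0.01, -0.13 and -0.11 in controls and -1.53, -1.98 and -1.52 with overexpression. It was lower by 1.59 on average, and the exact permutation test gave p = 0.10 (two-sided), again the smallest possible.

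**Figure D2:**
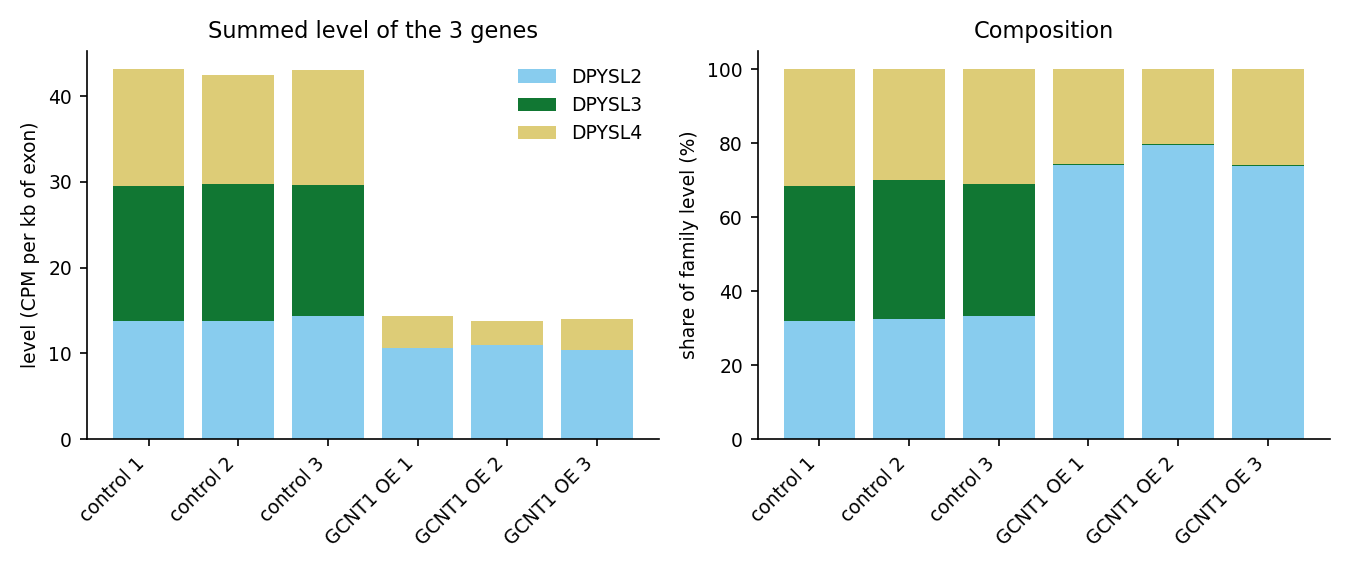
Level of DPYSL2, DPYSL3 and DPYSL4 in each library as stacked bars, in CPM per kilobase of exon on the left and as a percentage of their sum on the right. The sum is near 43.0 in controls and near 14.1 with overexpression, and DPYSL2 makes up 73.9% to 79.5% of it in the overexpressing libraries.

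CRMP1 and DPYSL5, which encodes CRMP5, had no row and were not analysed here. The third-highest library of every gene in the table was at 1.01 CPM or more, so the table says nothing of genes below that level. Genes such as PNMA2, MAP7, MAP6 and TUBB2B, named below, had means under this level with overexpression and met it in the controls. CRMP1 lies on chromosome 4 from 5820764 to 5893086 and DPYSL5 on chromosome 2 from 26847995 to 26950351. The coding sequences of the canonical transcripts, 686, 677, 684, 572 and 564 codons in CRMP1, DPYSL2, DPYSL3, DPYSL4 and DPYSL5, were aligned in pairs. DPYSL2, DPYSL3 and DPYSL4 shared 71.8% to 74.7% of aligned bases, and DPYSL5 was the most distant member, with 64.3% to 65.9%. No pair of members had a stretch of 75 bases, the read length, in common in any annotated transcript.

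The 3 genes were set beside their chromosomal neighbours, without a test between the neighbourhoods. The 50 analysed genes nearest to DPYSL3 had a median log2 fold change of -0.24, with 5 called higher and 14 called lower. For DPYSL4 the median was -0.03, with 2 higher and 4 lower, and for DPYSL2 it was -0.01, with 2 higher and 9 lower. Over all genes 8.28% were called higher and 11.1% lower. DPYSL4 was below all 50 of its neighbours, and 2.3% of all genes had a log2 fold change at or below that of DPYSL4. DPYSL3 was also below all 50, which its selection by its fall made likely beforehand. Of 50 neighbours of DPYSL2, 40 had a higher log2 fold change than DPYSL2 itself. The nearest gene of the table below DPYSL2 was PNMA2, a paraneoplastic antigen gene that lies head to head with it from 26504701 to 26513872. PNMA2 had counts of 106, 93 and 92 in the controls, against 1, 0 and 1 in the overexpressing lines. It was at least 34.3-fold lower, computed against a floor of 3 counts per library (edgeR adjusted p = 2.11e-09). A near loss of PNMA2 thus stood directly beside a small difference in DPYSL2. On the other side of DPYSL2, TRIM35 had a log2 fold change of 0.40, under the fold threshold. In GENCODE 44, PNMA2 overlaps the start of DPYSL2 on the opposite strand.

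DPYSL3 and DPYSL4 both lie between a JAKMIP gene, which encodes a microtubule-binding protein, and an STK32 gene, which encodes a kinase. JAKMIP2, beside DPYSL3, had counts of 80, 73 and 78 in the controls, against 12, 20 and 14 in the overexpressing lines, and fell by 2.42 on the log2 scale (edgeR adjusted p = 2.56e-07). STK32A, on its other side, had counts of 17, 8 and 16 against 22, 21 and 23 (log2 fold change 0.59, edgeR adjusted p = 0.0973). Beside DPYSL4, JAKMIP3 and STK32C had log2 fold changes of 0.26 and -0.22, and neither passed the p threshold. Without GCNT1 overexpression replicate 1, STK32C had -0.35 and passed it (edgeR adjusted p = 0.00573), still under the fold threshold. JAKMIP3 had 0.099 without GCNT1 overexpression replicate 3. The PPP2R2 genes, regulatory subunits of protein phosphatase 2A, were looked up with these families after the neighbours were seen. At least 1 gene of each of the 3 families lies within 0.619 Mb of CRMP1, DPYSL3 and DPYSL4, and of these families only PPP2R2A is on the chromosome of DPYSL2. Of the 10 genes in the 3 families 7 had a row, and JAKMIP2 was the single one called.

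**Figure D3:**
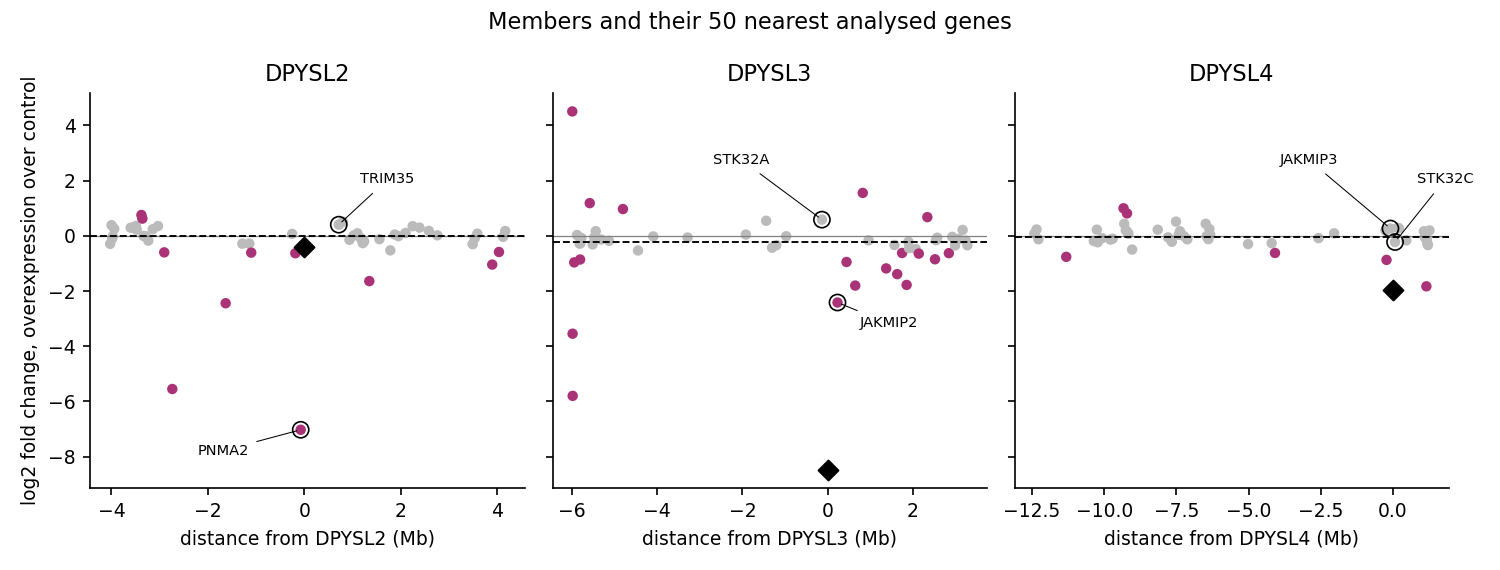
Log2 fold change of each member (black diamond) and of the 50 analysed genes around it, against distance from the member in Mb. Called genes are dark, other genes grey, the adjacent genes circled and the local median dashed. DPYSL3, on whose fall the family was selected, and DPYSL4 lie below all of these genes. Beside DPYSL2 it is PNMA2 that falls.

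Genes that act with CRMPs were counted in lists, against 19.3% of all genes called and a median log2 fold change of 0.00095 over all genes. Among 8 kinases and kinase activators of CRMPs with a row, 1 was called, and the median was 0.01. This was ROCK2, a kinase downstream of RhoA, with counts of 2540, 2277 and 2130 in the controls, against 881, 1337 and 1248 in the overexpressing lines. ROCK2 fell by 1.11 on the log2 scale (edgeR adjusted p = 8.40e-08). The log2 fold change of its relative ROCK1 was 0.10. DYRK2, which primes CRMP4 and CRMP2 for GSK3, had 0.46, and GSK3B had 0.18, both past the p threshold but under the fold threshold. GSK3B did not pass the p threshold without control replicate 3 (edgeR adjusted p = 0.0548) or GCNT1 overexpression replicate 3 (edgeR adjusted p = 0.0789). CDK5, its activator CDK5R1, GSK3A and FYN had log2 fold changes of -0.01, -0.20, -0.09 and 0.03 and did not pass the p threshold. FES had no row.

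Of 11 binding partners with a row 1 was called, MICAL1, an actin-oxidizing enzyme of the semaphorin response, which fell by 0.73 on the log2 scale. The median of the partners was -0.15, and the kinesin genes KLC1 and KIF5B had -0.40 and -0.13. In the semaphorin 3 route 2 of 12 genes with a row were called, 1 in each direction, with a median of -0.10. PLXNA2, a plexin-A receptor, had counts of 129, 131 and 117 against 23, 29 and 25 and fell by 2.38 on the log2 scale. The ligand gene SEMA3D rose by 0.91, with 288, 230 and 170 counts in controls and 315, 545 and 535 with overexpression. SEMA3A, NRP1 and PLXNA1 had log2 fold changes of -0.40, 0.49 and 0.28 and were not called.

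Tubulin genes had 3 of 11 called and a median of -0.13. TUBA4A rose by 1.03 on the log2 scale, TUBB2A fell by 0.64 and TUBB2B, with counts of 24, 17 and 24 against 9, 3 and 3, fell by 2.18. Without GCNT1 overexpression replicate 1 the log2 fold change of TUBB2B was -2.98. Scaled by library size alone, TUBB2A had a log2 fold change of -0.58 and just missed the threshold. The abundant TUBA1B and the neuronal TUBB3 had -0.13 and 0.04. TUBB2A and TUBB2B are near-identical copies, and how the counting split their reads is uncertain.

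Among microtubule-associated proteins 5 of 16 genes with a row were called, all lower, with a median of -0.22, where 11.1% of all genes were called lower. MAP7 and MAP6 had means of 0.737 and 0.869 CPM with overexpression, so they met the level of the table in the controls. MAP7, which recruits kinesin to microtubules, had counts of 119, 116 and 119 against 4, 12 and 14 and fell by 3.64 on the log2 scale. MAP6, which stabilizes microtubules, fell by 2.00, and the plus-end proteins MAPRE2 and CLASP2 fell by 0.68 and 0.68. CLASP2 without control replicate 1 had -0.57 and was no longer called. The fifth gene was MAP2, at -1.03, which is named here after its value was seen. MAP1B and STMN1 had -0.03 and -0.29.

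Of 6 neurite and neurofilament genes with a row 4 were called, 1 higher and 3 lower, with a median of -0.80. NEFL, the light neurofilament subunit, fell by 2.44 on the log2 scale from 282 ± 1.11 to 51.9 ± 2.41 CPM (SD, n = 3 each). The growth cone genes BASP1 and MARCKS fell by 1.15 and 1.05. PRPH, encoding peripherin, was at 11, 8 and 13 counts in controls and 19, 21 and 21 with overexpression and rose by 0.83, but was not called by DESeq2 (adjusted p = 0.114) or by edgeR without control replicate 2 (adjusted p = 0.0928). Of 13 neuroendocrine markers only SYP, ENO2 and FOXA2 had a row; SYP and FOXA2 fell by 1.11 and 1.05, and ENO2 was at -0.48. None of 6 genes of pyrimidine metabolism and related amidohydrolases was called by edgeR, although 3 of them passed the p threshold alone. The closest enzyme relative, DPYS, had no row.

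**Figure D4:**
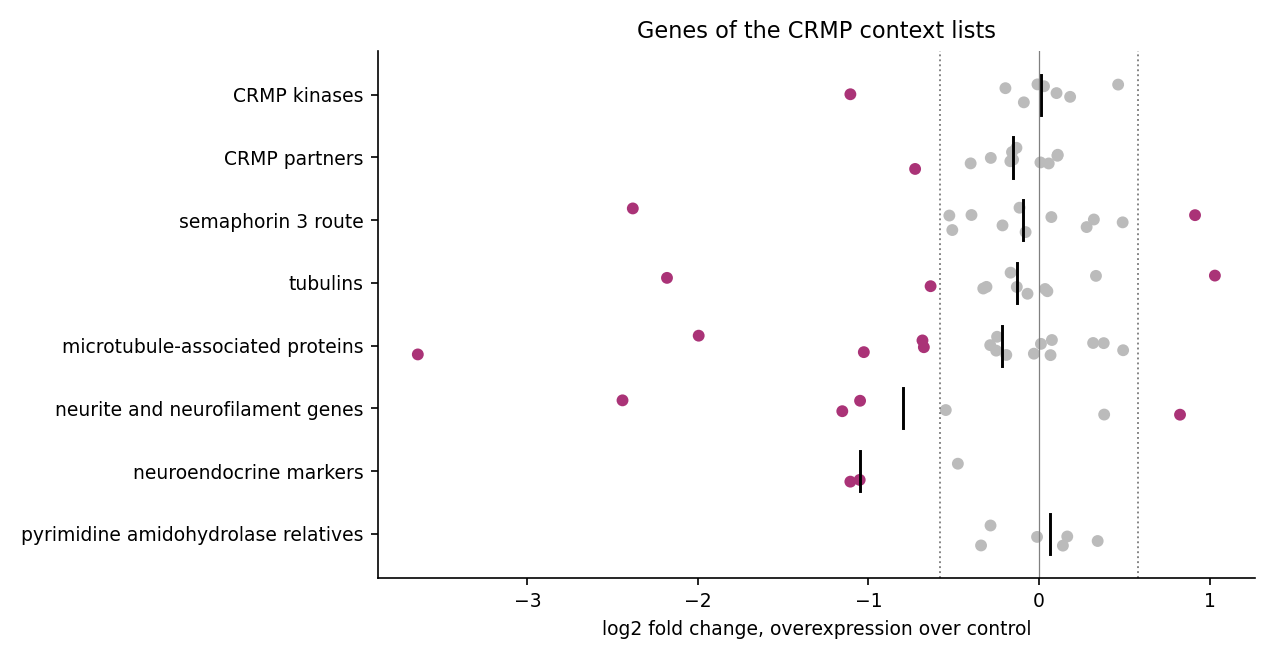
Log2 fold change of every gene with a row in the 8 lists, with called genes dark, other genes grey, the list median as a bar and the fold threshold dotted. Calls lie on the lower side alone among kinases (1 of 8), partners (1 of 11), microtubule-associated (5 of 16) and neuroendocrine genes (2 of 3). Over all genes 11.1% were called lower and 8.28% higher. Tubulin, semaphorin and neurite genes have calls on both sides (PRPH, the neurite gene called higher, is not called by DESeq2). The pyrimidine list has none by edgeR.

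The genes with the profile nearest to DPYSL3 were sought by Euclidean distance over the 6 libraries in log2 CPM, a description that rests on the same fall. LCP1, the actin bundler L-plastin, was nearest at a distance of 1.67, with 842, 835 and 794 counts in controls and 7, 6 and 7 with overexpression. It was followed by LRATD2 at 1.78, the GATA cofactor gene ZFPM2 at 2.53, the keratin gene KRT75 at 2.75 and TMEM98 at 2.90. LRATD2 had counts of 1265, 1221 and 1052 against 8, 11 and 11. TMEM98 had no count in any overexpressing library, at least 313-fold lower when computed against 3 counts per library. These 5 genes lie on chromosomes 13, 8, 8, 12 and 17, and none is on chromosome 5 with DPYSL3.

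**Figure D5:**
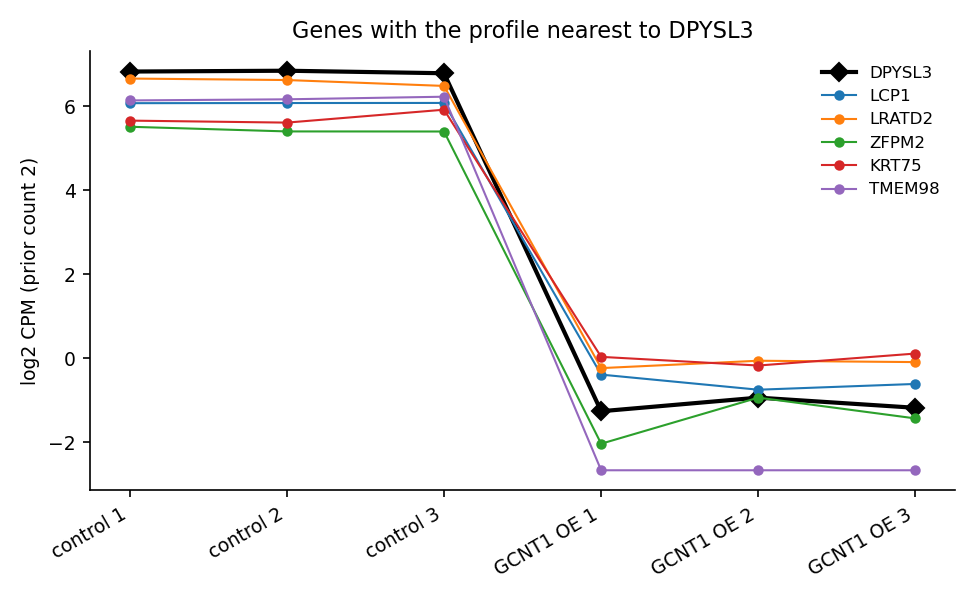
Log2 CPM (prior count 2) of DPYSL3 and of the 5 genes nearest to it in each of the 6 libraries. All 6 genes drop between the control and the overexpressing libraries; DPYSL3 is the highest of them in the controls, and TMEM98 the lowest with overexpression.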

How the data were processed

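The authors made stranded mRNA libraries from 3 control and 3 GCNT1 overexpressing PC3 lines and sequenced single reads of 75 bp. Raw read counts by Entrez identifier were deposited, without normalization or pooling, after trimming (Cutadapt), alignment to hg38 (HISAT2) and featureCounts. The annotation, the strand setting and the low-count filter were not given in the sources used here. Symbols were matched for 12661 of 12703 genes in RefSeq (GRCh38.p14), and exon lengths for 12466 in GENCODE 44.

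The main test used edgeR 4.0.16 under R 4.3.3, with filterByExpr (no gene was removed), TMM scaling and quasi-likelihood F tests of overexpression against control. P values were Benjamini-Hochberg adjusted across 12703 genes. The SE is the absolute log2 fold change divided by the square root of F. Thresholds were those of the study. Alternatives were limma-voom (limma 3.58.1, the tool of the study), DESeq2 1.42.0, scaling by RLE or by library size, omission of the filter, a minimum of 10 counts in every library, the replicate block, and leaving out each library. On simulated counts of 12703 genes with 200 changed, edgeR recovered 96% of them with 1.03% false calls. The simulation gave every gene the same dispersion and changed far fewer genes than were called here. It checks that the code runs as intended, and its rates are not error rates of the calls here. Levels, sequences and figures were computed in Python 3.11.15 with Biopython 1.88.

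The members, the lists and the rule for named genes were chosen with earlier results of these data known. That rule took the members, GCNT1, all CRMP kinases, up to 4 called genes per list with the smallest p and groups that did not overlap, the 5 genes nearest to DPYSL3 in profile and the adjacent genes of the table. Other genes named from the lists and neighbourhoods were chosen after their values were seen. Each library counted as 1 sample because each came from its own line. Libraries of a group differed by more than sampling noise (chi-square per degree of freedom 1.65 to 5.61). Some results of the lists are not reported here.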

Additional observations from a re-analysis of the deposited data

How the results depend on the processing

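Under all 13 alternatives DPYSL4 stayed called, with log2 fold changes from -2.04 to -1.85, and DPYSL2 stayed past the p threshold and under the fold threshold, from -0.41 to -0.33. The minimum of 10 counts in every library leaves out DPYSL3, which ranged from -8.63 to -8.37 over the other 12. Between 1980 and 2513 genes were called over the whole table, the lowest number with that minimum, and the number in every list stayed within 1.5 times its main value. Direction turned in 2 uncalled kinases: CDK5 had a log2 fold change of 0.049 with library size alone and ranged from -0.043 to 0.060 when single libraries were left out, and FYN ranged from -0.043 to 0.106. Among named genes 8 values lost their call, in GCNT1, PRPH, TUBB2A and CLASP2. With the replicate block 2423 genes were called, against 2457 without it, and DPYSL2 and DPYSL4 had log2 fold changes of -0.39 and -1.98. Same-numbered libraries did not deviate together (correlations -0.27, -0.0024 and -0.11), so they share only a number. Depth limits DPYSL3, PNMA2 and TMEM98 with overexpression, where few or no counts remain.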

Other observations

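The genes on both sides of DPYSL3 were set side by side after their values were seen. Of the 10 analysed genes next to DPYSL3 at higher coordinates, within 1.86 Mb, 7 were called lower and 1 higher, with a median log2 fold change of -1.06. Those called lower ran from -2.42 for JAKMIP2 to -0.62 for ABLIM3 and included SPINK5 at -1.80 and AFAP1L1 at -1.78, and SPINK13, at 1.56, was the one called higher. The 10 analysed genes at lower coordinates reached farther, to 4.81 Mb. Of these, none was called lower by edgeR and 1, FGF1, was called higher, with a median of -0.02. Around DPYSL2, 1 of the 10 analysed genes at higher coordinates, within 1.55 Mb, was called lower. At lower coordinates, within 3.03 Mb, 6 of the 10 were called lower, with a median of -0.60. They included PNMA2, NEFL at -2.44 and STC1, the stanniocalcin gene, at -5.55. Around DPYSL4, 2 of the 10 genes at lower coordinates, within 6.36 Mb, and 1 of the 10 at higher coordinates, within 1.19 Mb, were called lower. The sides of each member thus span unlike distances. Over all genes 11.1% were called lower and 8.28% higher with TMM scaling, and with library size alone 1230 of 12703 genes were called lower and 1283 higher. With TMM scaling, counts of 1 or 2 of 10 are at about the share of all genes, and the counts by side were not recomputed with library size alone.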
